A study of Mus musculus with 8 samples.

Results

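The Toll-like receptor genes followed here in macrophages of mouse fat are 10 of the 41388 genes in the deposited tables, matched by symbol through the GENCODE M21 annotation of the mouse genome build GRCm38. The members were Tlr1, Tlr2, Tlr4, Tlr5 and Tlr6, whose proteins work at the cell surface, and Tlr3, Tlr7, Tlr8, Tlr9 and Tlr13, whose proteins work in endosomes. The cells came from epididymal white adipose tissue of 4 male MitoFat mice on normal chow, a strain with a reporter confined to adipocyte mitochondria. Live cells positive for CD45, F4/80 and CD64 were sorted in each mouse into a population without the reporter signal (mtD2−) and one with it (mtD2+), the latter being macrophages that had received mitochondria from adipocytes. All 8 libraries, 4 per population, therefore carry the reporter genotype and the same diet, and each mtD2+ library has an mtD2− partner from the same mouse. The sources used here do not give the age of the mice, the promoter that drives the reporter or the number of sorted cells.

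Toll-like receptors are sensors of microbial molecules and of some host molecules released by damage. Leucine-rich repeats outside the membrane or inside the endosome bind the ligand, and a cytoplasmic TIR domain recruits the adaptors MyD88 or TRIF, which lead to the transcription factors NF-kB and IRF and to cytokine and interferon genes. Surface members mainly read bacterial wall components and flagellin, while endosomal members read nucleic acids, among them unmethylated CpG DNA, which mitochondrial DNA also contains. The comparison of the paired populations asks how macrophages that hold adipocyte mitochondria differ in RNA from neighbours that do not.

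The tables held 18462287 to 27464399 gene-assigned counts per library. The sorted macrophage genes were present in all 8 libraries, with 9 macrophage markers summing to 16060 to 20030 CPM (counts scaled to a common library size) in mtD2− and 12750 to 16680 CPM in mtD2+. Of these 9, 1 was called higher and 2 lower in mtD2+. Markers of fibroblasts, which lie outside the sort gate, summed to 762.0 to 1334 CPM in mtD2− and 221.5 to 284.4 CPM in mtD2+, with 6 of 9 called lower and a lower sum in 4 of 4 mice. Over all genes 67.7% of the calls were higher in mtD2+, or 53.8% when libraries were scaled by their totals alone. The monocyte marker Ccr2 stood at 476.0 to 610.9 CPM in mtD2− and 261.0 to 370.4 CPM in mtD2+ and was called lower (log2 −0.74, adjusted p = 0.00813 by edgeR), while Ly6c2 and Plac8 averaged under 5 CPM. Conventional dendritic cell markers, carried by Cd209a, summed to 119.4 to 152.2 CPM and 162.8 to 204.1 CPM, higher in 4 of 4 mice, with 0 of 4 tested genes called and Xcr1, Clec9a and Flt3 averaging under 5 CPM. The part of these markers in the receptor and pathway values was not tested. The T cell genes Cd3d, Cd3e and Cd3g and the neutrophil genes S100a8, S100a9, Ly6g and Retnlg averaged under 5 CPM (the fifth neutrophil marker, Csf3r, averaged 71.1), as did the plasmacytoid dendritic cell genes Ccr9, Klk1 and Cox6a2, whereas Siglech, the other gene of that list, reached 41.5 to 96.7 CPM. In these bulk samples, fewer cells of a type and less RNA per cell cannot be told apart. Nothing says that RNA of a mouse was prepared more than once, so the mouse is the replicate throughout.

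All 10 genes passed the filter on low counts, and the rarest member, Tlr9, had 1452 counts over the 8 libraries. None of the 10 differed between the populations at an adjusted p of 0.05 in the paired quasi-likelihood test of edgeR, against 5.50% of the 13933 genes tested (3.72% higher and 1.78% lower in mtD2+). At an unadjusted p of 0.05, 3 of the 10 passed (Tlr2 and Tlr7 higher, Tlr1 lower), against 22.8% of all genes. The same direction in all 4 mice was seen for 3 of the 10 (Tlr7 higher, Tlr3 and Tlr13 lower), against 32.3% of all genes. For 1 member, Tlr3, the ranges of the 2 populations did not overlap, against 12.6% of all genes. Each of these shares lies near the background, so they are no result about the receptors as a group. The 95% intervals of the 10 fold changes reached no further than 1.81-fold higher (Tlr9) and 2.19-fold lower (Tlr3) in mtD2+.

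From the highest member to the lowest, levels differed far more than any member differed between the populations. Some neighbours in the order, such as Tlr3 and Tlr9 in mtD2−, lay closer together than the populations did for Tlr3. Levels of different genes are compared here as CPM per kilobase of gene length, scaled with TMM factors. In mtD2−, Tlr2, which reads bacterial lipoproteins, was the most abundant at 88.9 ± 37.7 CPM per kilobase (SD, n = 4), above 96.3% of the tested genes. Tlr7, a receptor for single-stranded RNA, followed at 32.9 ± 6.66. Next came Tlr1 (19.6 ± 2.21), Tlr5 (18.7 ± 4.38), Tlr4 (17.9 ± 5.72) and Tlr13 (16.7 ± 2.36), 4 genes in which each neighbour's range over libraries overlapped the next. Tlr8 (10.6 ± 2.89) and Tlr6 (7.36 ± 2.11) overlapped each other, and so did Tlr3 (2.18 ± 0.390) and Tlr9 (2.14 ± 0.977), the lowest of the set. Neighbours in this order whose ranges did not overlap were Tlr2 and Tlr7, Tlr7 and Tlr1, Tlr13 and Tlr8, and Tlr6 and Tlr3. The lowest Tlr4 library, at 11.15, still lay inside the range of Tlr8, which reached 13.9.

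In mtD2+, Tlr2 and Tlr7 were again apart from the rest and from each other. Tlr2 stood at 113.7 ± 20.9 and Tlr7 at 40.1 ± 8.22 CPM per kilobase. The middle group ran Tlr5, Tlr4, Tlr1 and Tlr13, from 21.01 ± 4.39 to 15.0 ± 1.18, so that Tlr1 moved from the first to the third place among 4 genes that overlap in turn. Tlr8 (9.63 ± 1.03) and Tlr6 (8.28 ± 2.56) followed, here below every library of the middle group, then Tlr9 (2.48 ± 0.824) and Tlr3 (1.51 ± 0.396). Of the other Toll-like receptor genes of the mouse, Tlr11 had 27 to 149 counts per library and Tlr12 had 0 to 166, which is 0.00 to 7.64 CPM, and neither was called.

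**Figure D1:**
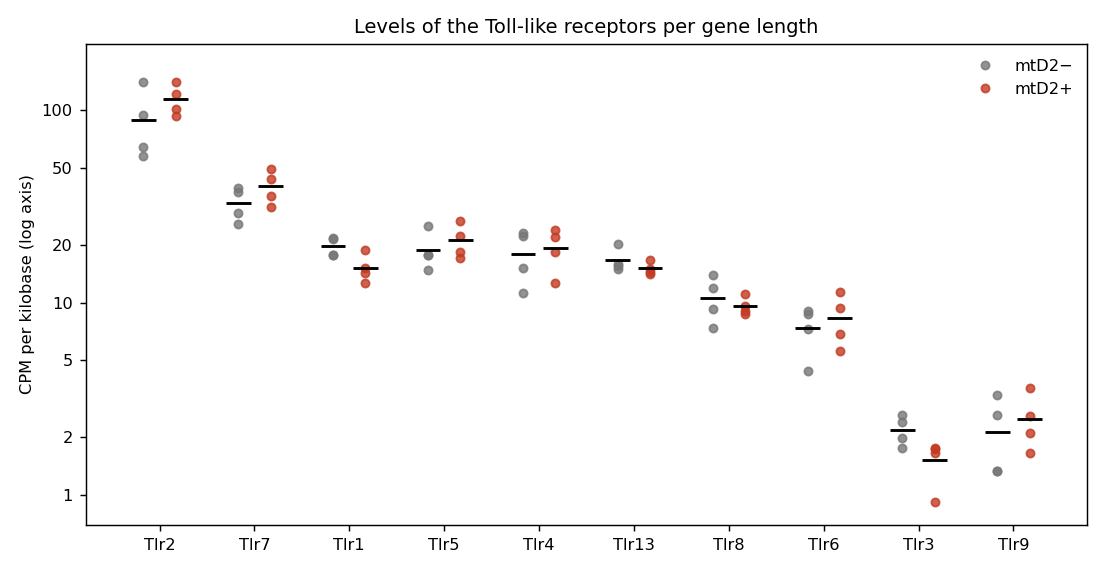
Level of each Toll-like receptor gene in CPM per kilobase on a log axis, one point per library (grey mtD2−, red mtD2+, 4 each) with the mean as a black bar, ordered by the mtD2− mean. Tlr2 and Tlr7 lie apart at the top, a middle group of Tlr1, Tlr5, Tlr4 and Tlr13 overlaps, and Tlr3 and Tlr9 lie lowest in both populations.

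Tlr2 (chr3:83836273-83841767, minus strand) pairs with Tlr1 or Tlr6 to bind lipopeptides. In mice 1 to 4 its RNA stood at 282.4, 172.9, 193.7 and 422.6 CPM in mtD2− and at 363.9, 280.7, 304.2 and 421.3 CPM in mtD2+. It was higher in mtD2+ in 3 mice and level in mouse 4, whose mtD2− library was the highest of its group, and the ranges overlap. The log2 fold change was 0.43 (SE 0.14, unadjusted p = 0.0119, adjusted p = 0.105 by edgeR; 95% interval 0.12 to 0.74). Of the 10 genes, Tlr2 alone was called by any other fit that was run: by the Wald test of DESeq2 (log2 0.44, adjusted p = 0.0143, where 12.9% of all genes were called) and by edgeR without mouse 4 (log2 0.57, adjusted p = 0.0377, where 3.95% were called). Without the pairing by mouse its adjusted p was 0.505, and over all settings run its adjusted p lay between 0.0143 and 0.505.

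The RefSeq promoter table (GRCm38.p6) held, upstream of Tlr2, a match to the consensus site of NF-kB. The sequence is shown because Tlr2 had the largest positive fold change of the 10, although it was not called. Any part of NF-kB in the Tlr2 values was not tested. RefSeq places the Tlr2 start inside the gene as GENCODE gives it, so that 159 of the 250 bases before the RefSeq start lie within the GENCODE gene. Printed are the other 91 bases, chr3:83841768-83841858 on the minus strand, 5′ to 3′, with 2 overlapping matches in capitals that end 3 bases before the GENCODE start.

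Tlr2: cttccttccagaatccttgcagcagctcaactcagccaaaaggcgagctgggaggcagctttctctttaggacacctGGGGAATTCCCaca

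Of the 10 members, 8 were in that table, with 10 upstream regions of 250 bases between them. The NF-kB consensus on either strand was in 2 of the 10 regions, 1 each of Tlr2 and Tlr3, against 3.9% of all 32851 regions of the same length. The core of the interferon-stimulated response element, searched by its consensus on either strand, was in 1 of the 10 regions, of Tlr6, against 3.0% of all regions. The Tlr3 match and the whole Tlr6 region with the match lie inside the genes as GENCODE gives them. They are thus upstream only of the RefSeq starts. A match is a description of the letters and does not show that a factor binds.

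Tlr1 (chr5:64924811-64932761) and Tlr6 (chr5:64953106-64960048), both on the minus strand, are neighbouring genes whose proteins are the alternative partners of Tlr2, Tlr1 for triacylated and Tlr6 for diacylated lipopeptides. Tlr1 stood at 57.3, 46.8, 56.7 and 46.9 CPM in mtD2− and at 37.8, 40.1, 33.4 and 49.5 CPM in mtD2+. It was lower in mtD2+ in mice 1, 2 and 3 and slightly higher in mouse 4, and the ranges overlap (log2 −0.38, SE 0.16, unadjusted p = 0.0454, adjusted p = 0.21 by edgeR). Tlr6 stood at 23.6, 22.6, 18.9 and 11.5 CPM in mtD2− and at 29.4, 24.5, 14.5 and 17.8 CPM in mtD2+, higher in 3 mice and lower in mouse 3 (log2 0.17, SE 0.20, adjusted p = 0.667). Per kilobase, Tlr1 RNA was 2.38, 2.04, 2.94 and 4.00 times Tlr6 RNA in mtD2− and 1.26, 1.61, 2.26 and 2.73 times in mtD2+. That ratio was lower in mtD2+ in each of the 4 mice, although its ranges overlap between the populations. The other ratio computed, Tlr7 to Tlr8 per kilobase, was higher in mtD2+ in mice 1, 2 and 3 and level in mouse 4 (3.45 in mtD2− and 3.448 in mtD2+). The Tlr1 to Tlr6 ratio was computed after the values were seen, and neither ratio was tested.

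The counts of this pair carry an uncertainty, because the coding sequences are nearly the same over their 3′ part. From the first shared run of at least 30 bases onward, 1011 of 1086 aligned coding bases were identical (93.1%), and the longest identical run was 229 bases. A read of 50 bases placed at every position of the transcripts would match both genes at 13.6% of the positions of Tlr1 and 12.3% of those of Tlr6. At a read length of 100 bases those shares were 7.89% and 7.09%. Among Toll-like receptor genes, no other pair with a member shared a stretch of either length. Genes outside the family were not searched. The sources used here state neither the read length nor the treatment of reads that match several places, and the split of such reads between the 2 genes was not tested. The longest run, at chr5:64925537-64925765 in Tlr1 and chr5:64953828-64954056 in Tlr6 (GRCm38, minus strand), is coding sequence. It is printed because a read lying wholly within it matches both genes.

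Tlr1 and Tlr6: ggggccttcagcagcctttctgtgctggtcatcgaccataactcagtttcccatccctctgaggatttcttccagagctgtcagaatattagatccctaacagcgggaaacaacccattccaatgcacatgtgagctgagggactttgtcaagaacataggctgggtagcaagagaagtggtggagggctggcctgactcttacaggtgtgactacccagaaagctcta

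The 60 coding bases just before the first shared run tell the genes apart at 28 positions, shown in capitals (chr5:64925940-64925999 for Tlr1 and chr5:64954231-64954290 for Tlr6, minus strand, 5′ to 3′).

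Tlr1: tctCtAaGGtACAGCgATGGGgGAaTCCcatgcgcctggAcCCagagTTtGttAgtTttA

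Tlr6: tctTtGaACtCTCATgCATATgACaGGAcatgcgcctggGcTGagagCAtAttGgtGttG

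Tlr4 (chr4:66827584-66930284, plus strand), the receptor for bacterial lipopolysaccharide, stood at 123.4, 84.1, 127.9 and 62.0 CPM in mtD2− and at 101.2, 121.9, 132.8 and 70.3 CPM in mtD2+. Mouse 4 had the lowest value in both populations, and mouse 1 moved against the other 3 (log2 0.12, SE 0.14, adjusted p = 0.659 by edgeR). Without mouse 2 the sign turned, to −0.02. Tlr5 (chr1:182954788-182976044, plus strand), the flagellin receptor, stood at 47.3, 56.3, 79.9 and 56.2 CPM in mtD2− and at 58.2, 71.2, 85.2 and 54.2 CPM in mtD2+. It was higher in 3 mice, with mouse 3 the highest in both populations (log2 0.17, SE 0.12, adjusted p = 0.444).

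Among the endosomal receptors, Tlr7 (chrX:167304929-167330558, minus strand) had the most even difference. It stood at 160.3, 118.8, 153.7 and 103.9 CPM in mtD2− and at 202.6, 145.2, 179.4 and 127.9 CPM in mtD2+. It was higher in mtD2+ in 4 of 4 mice, by 0.22 to 0.34 on the log2 scale, while the ranges of the populations overlap. The fold change of 1.22 (95% interval 1.04 to 1.43) had an unadjusted p of 0.0179 and an adjusted p of 0.129 by edgeR, and no setting called it (adjusted p between 0.0692 and 0.447).

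Tlr8 (chrX:167242696-167264329, minus strand), the neighbour of Tlr7 and also a sensor of RNA breakdown products, did not follow it. It stood at 42.6, 33.1, 50 and 26.4 CPM in mtD2− and at 39.7, 34.5, 31.3 and 32.6 CPM in mtD2+, lower in 2 mice and higher in the other two (log2 −0.10, SE 0.18, adjusted p = 0.774 by edgeR). Without mouse 3 its sign turned, to 0.09. The third X-linked member, Tlr13 (chrX:106143204-106160493, plus strand), reads bacterial ribosomal RNA and stood at 61.3, 63.5, 82.4 and 65.1 CPM in mtD2− and at 57.6, 58.6, 68.3 and 61.3 CPM in mtD2+. It was lower in 4 of 4 mice by small amounts, with overlapping ranges (log2 −0.14, SE 0.11, adjusted p = 0.492).

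Tlr3 (chr8:45395665-45410608, minus strand), the receptor for double-stranded RNA, which signals through TRIF and not MyD88, had the largest absolute fold change of the 10. It stood at 7.70, 11.5, 8.66 and 10.5 CPM in mtD2− and at 4.06, 7.61, 7.26 and 7.69 CPM in mtD2+. Every mtD2+ value lay below every mtD2− value, with 7.69 CPM the highest of the former and 7.70 CPM the lowest of the latter. The log2 fold change was −0.55 (SE 0.26, 95% interval −1.13 to 0.03, unadjusted p = 0.0595, adjusted p = 0.24 by edgeR), on 89 to 303 counts per library. The fibroblast markers were lower in mtD2+ in the same 4 mice, by log2 ratios of −1.63, −1.81, −1.78 and −2.47 for their sum. The macrophage marker sum (−0.3, −0.07, −0.33 and −0.36) and the monocyte marker Ccr2 were lower in these mice too. The conventional dendritic cell marker sum was higher. The part of any of these markers in the Tlr3 values was not tested. An antisense gene, Gm45542, overlaps the 5′ end of Tlr3 on the other strand and is not among the genes counted in the tables. The sources used here do not state whether counting took account of strand. Any part of Gm45542 reads in the Tlr3 counts was not tested.

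Tlr9 (chr9:106222598-106226883, plus strand), the receptor for CpG DNA, stood at 4.62, 4.61, 9.04 and 11.5 CPM in mtD2− and at 5.74, 7.35, 8.95 and 12.4 CPM in mtD2+. It was higher in 3 mice and level in mouse 3, and the ranges overlap almost entirely. The fold change of 1.21 had a 95% interval of 0.803 to 1.81 (adjusted p = 0.578 by edgeR), so these 4 mice leave both a lower and a higher level within the interval.

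**Figure D2:**
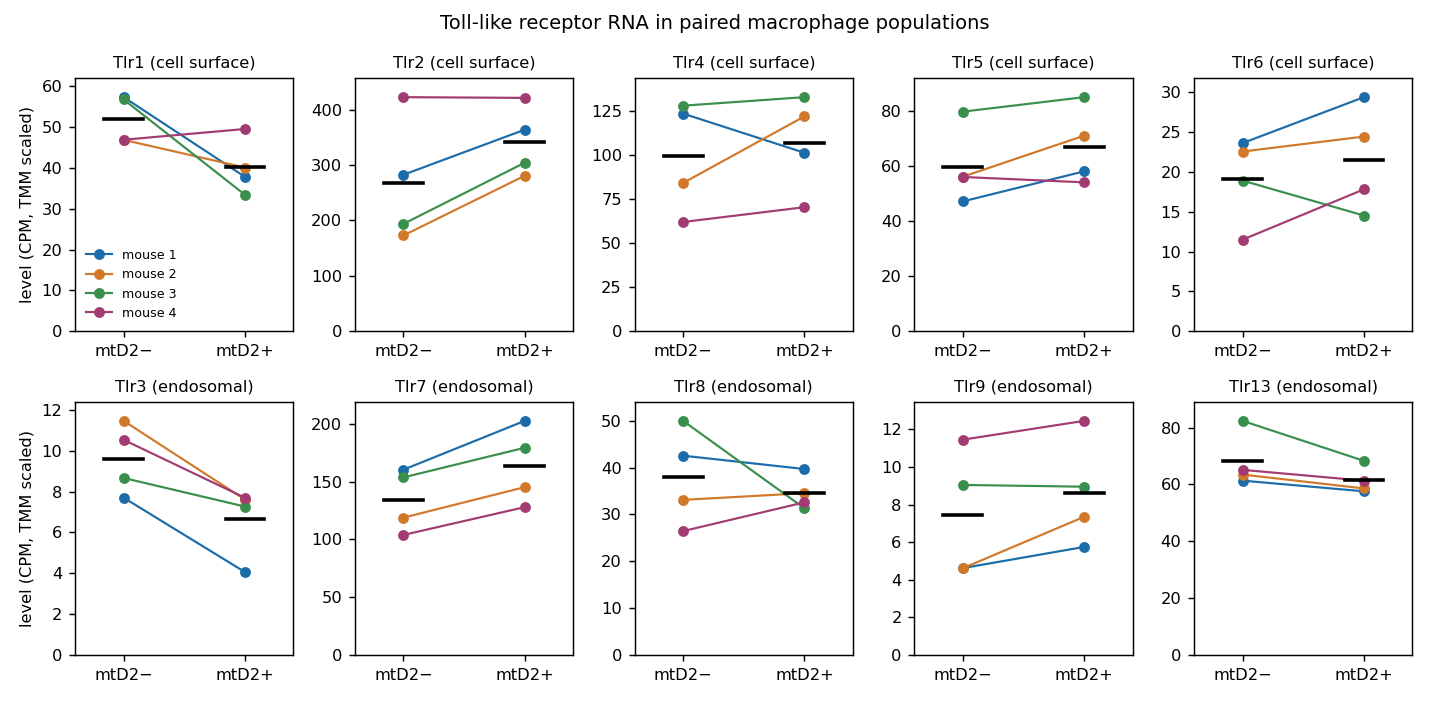
Level of each member in CPM (scaled with TMM factors, axes from 0) in mtD2− and mtD2+, with a line joining the 2 libraries of each mouse and a black bar at the mean of 4. The lines for Tlr7 all slope up, those for Tlr3 and Tlr13 all slope down, and for the other 7 genes at least 1 mouse goes against the rest.

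As classes, the surface and endosomal members had medians of opposite sign and close to 0. The median log2 fold change was 0.17 over the 5 surface genes (4 positive) and −0.10 over the 5 endosomal genes (2 positive), beside −0.00 over all genes tested. Mouse by mouse, the median ratio was 0.30, 0.34, 0.05 and 0.08 for the surface genes and −0.09, 0.06, −0.25 and 0.12 for the endosomal genes, so that the endosomal median exceeded the surface median in mouse 4. Without mouse 3 the endosomal median became 0.09. No class had a called gene, and the difference between the classes was not tested, since the genes of a class are not replicates.

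**Figure D3:**
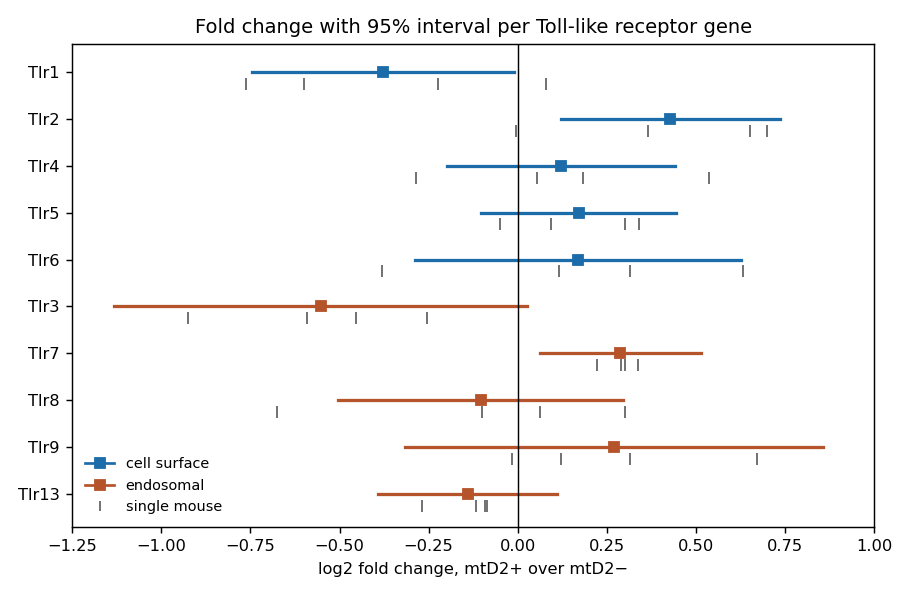
Log2 fold change of each member, mtD2+ over mtD2−, with its 95% interval from the edgeR fit (squares and bars, blue for surface and orange for endosomal members) and the ratio in each mouse (grey ticks). The intervals of Tlr1, Tlr2 and Tlr7 leave out 0 before adjustment for the 13933 genes tested, and those of the other 7 cross it.

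Levels of these receptors also varied between mice. For 9 of the 10 genes, all but Tlr1, the range of the 4 mouse means exceeded the mean difference between the paired populations, against 78.4% of the 13080 tested genes with a count in every library. This count is a description, since the same held for most genes. Tlr9 differed most, 2.32-fold between the highest mouse (mouse 4) and the lowest (mouse 1). Tlr4 differed 1.97-fold, with mouse 4 the lowest, and Tlr2 1.92-fold, with mouse 4 the highest. Mouse 4 was at the same end of both populations for 4 of the 10 genes, highest for Tlr2 and Tlr9 and lowest for Tlr4 and Tlr7, against 25.3% of all tested genes. Mouse 1 was so for 4 genes, Tlr3, Tlr6, Tlr7 and Tlr13, against 9.27% of all genes, and mouse 3 and mouse 2 for 3 and 1. The labels give no batch that would tell a mouse from its preparation, so mouse and preparation cannot be told apart.

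The member of smallest p, Tlr2, was compared with all other genes over the 8 libraries. Among 9361 genes with a mean of at least 5 CPM, those whose log2 CPM had the highest Pearson correlation with Tlr2 were Atf4 (r = 0.979), the transcription factor of the integrated stress response, Bcl2l11 (r = 0.977), which encodes the pro-apoptotic protein BIM, and Bcl2a1d (r = 0.975), an anti-apoptotic gene of the same family. The 8 libraries share mice and sorting, so these are descriptions. Bcl2a1d belongs to a group of near-identical genes, so its counts are uncertain.

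The rest of the pathway was read from 8 lists of 101 genes, of which 97 were tested. Among the co-receptors, chaperones, proteases and adaptors, which act next to the receptors, 1 gene was called, where 5.50% of all tested genes were. These lists held 6, 9, 10 and 5 tested genes. Their few calls lie near that share and are no result about the lists. Among 7 co-receptors and accessory molecules, 6 were tested, 0 were called higher and 1 lower, with a median log2 fold change of −0.14. The lower gene was Lbp, the secreted lipopolysaccharide-binding protein, at 14.4, 13.9, 5.00 and 26.4 CPM in mtD2− and 4.15, 4.71, 1.99 and 4.24 CPM in mtD2+. The ranges do not overlap, and Lbp fell 3.56-fold (log2 −1.83, SE 0.29, adjusted p = 0.011 by edgeR), a call lost without mouse 1 and without the pairing. The fibroblast marker sum, the macrophage marker sum and Ccr2 were lower in the same 4 mice, and their part in the Lbp values was not tested. Ly86, which encodes MD-1, the partner of the receptor relative CD180, was not called (log2 −0.33, SE 0.10, adjusted p = 0.0948).

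None of 9 chaperones and trafficking factors was called by edgeR, and 2 had an unadjusted p under 0.05. Those were Cnpy3 (log2 −0.29, SE 0.12, adjusted p = 0.208), a chaperone that folds several Toll-like receptors, and its relative Cnpy4 (log2 −0.35, SE 0.15, adjusted p = 0.212). Of 10 endolysosomal proteases and nucleases, 0 were called, while Dnase2a (0.34, SE 0.12, adjusted p = 0.147), which digests DNA in lysosomes, and the protease gene Ctsl (0.31, SE 0.12, adjusted p = 0.172) passed before adjustment. Of 5 tested TIR adaptors and related signalling adaptors, 0 were called. Myd88, the adaptor of every member here but Tlr3, stood at 76.7, 69.9, 65.1 and 87.3 CPM in mtD2− and 55.1, 58.6, 54.2 and 69.3 CPM in mtD2+ (log2 −0.33, SE 0.11, adjusted p = 0.119 by edgeR), lower in 4 of 4 mice. Pik3ap1, which links the receptors to PI3 kinase, was not called either (log2 0.31, SE 0.12, adjusted p = 0.158).

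Further downstream, some kinase, NF-kB and target genes were called higher by edgeR on all 8 libraries and none was called lower. Other fits did call genes lower: DESeq2 called 1 transcription factor gene. In the target list, limma voom called 1 gene lower, as did edgeR without mouse 4. Of 18 kinases and ubiquitin ligases, 4 rose (median log2 0.24): Map3k8, a MAP kinase kinase kinase of the pathway, Peli1, a ubiquitin ligase, Tbk1, the kinase that activates IRF3, and Chuk, a subunit of the IkB kinase complex. Map3k8 rose from 238.8, 192.0, 190.0 and 215.3 CPM to 350.9, 305.2, 312.7 and 331.3 CPM, with no overlap (log2 0.64, SE 0.10, adjusted p = 0.00962 by edgeR). Peli1, Tbk1 and Chuk rose by 0.59, 0.63 and 0.60 on the log2 scale (adjusted p = 0.0273, 0.0286 and 0.0421 by edgeR). Scaling by library totals alone cost those 3 the call, and Tbk1 and Chuk lost it without any one of the mice. Map3k8 lost it without mouse 1 and without mouse 3 (adjusted p = 0.0541 and 0.0709 by edgeR), and Peli1 without mouse 1, 3 or 4.

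Of 9 transcription factors, 3 rose (median 0.30), with 5 changes positive and 4 negative. The IRF genes Irf3, Irf5 and Irf7 were not called, with log2 changes of −0.495, −0.244 and −0.205 (adjusted p = 0.0803, 0.328 and 0.463 by edgeR). Nor were the NF-kB subunit genes Rela, Nfkb2 and Relb, at −0.023, 0.301 and 0.434 (adjusted p = 0.94, 0.306 and 0.139 by edgeR). Rel, the c-Rel subunit of NF-kB, stood at 100.2, 54.9, 77.4 and 120.5 CPM in mtD2− and 186.8, 113.9, 171.2 and 152.1 CPM in mtD2+, higher in each mouse (log2 0.86, SE 0.15, adjusted p = 0.0139 by edgeR). Nfkb1, the p105 and p50 subunit gene, rose 0.58 (SE 0.10, adjusted p = 0.016), and Nfkbiz, a nuclear IkB protein induced by Toll-like receptor signals, rose 0.60 (SE 0.12, adjusted p = 0.0261). Of 19 inhibitors, 3 rose (median 0.15): the ubiquitin-editing enzyme gene Tnfaip3 (0.75, SE 0.14), the IkB gene Nfkbie (0.66, SE 0.13) and the repressor Atf3 (0.80, SE 0.18).

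Of 23 target genes, 21 were tested, 6 were called higher and 0 lower (median 0.73), with 19 changes positive and 2 negative. Ifnb1, the interferon beta gene, had the largest change: 149.6, 62.6, 46.1 and 129.1 CPM in mtD2− and 428.4, 253.0, 176.1 and 216.7 CPM in mtD2+. It was higher in 4 of 4 mice with no overlap, and rose 2.94-fold (log2 1.56, SE 0.20, adjusted p = 0.00495 by edgeR). Cxcl10, a chemokine gene induced by interferon, rose 1.18 (SE 0.17, adjusted p = 0.00817). Ccl2, Cxcl1, Cxcl2 and Cd86 were the other 4, with log2 changes of 0.60 to 1.13.

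Over the 8 lists, 16 of 97 genes were called higher and 1 lower, where 3.72% of all tested genes were called higher and 1.78% lower. Of these 17, 3 (Ifnb1, Ccl2 and Cxcl10) kept the call whichever mouse was left out, and 2 (Map3k8 and Ccl2) kept it without the pairing by mouse. Leaving out mouse 1, 2, 3 or 4 left 3, 6, 3 or 20 genes of the lists called higher, where 1.21%, 1.38%, 0.850% or 3.08% of all tested genes were. Because the lists were chosen with earlier results of these data known, these shares are descriptions and no test of the pathway.

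**Figure D4:**
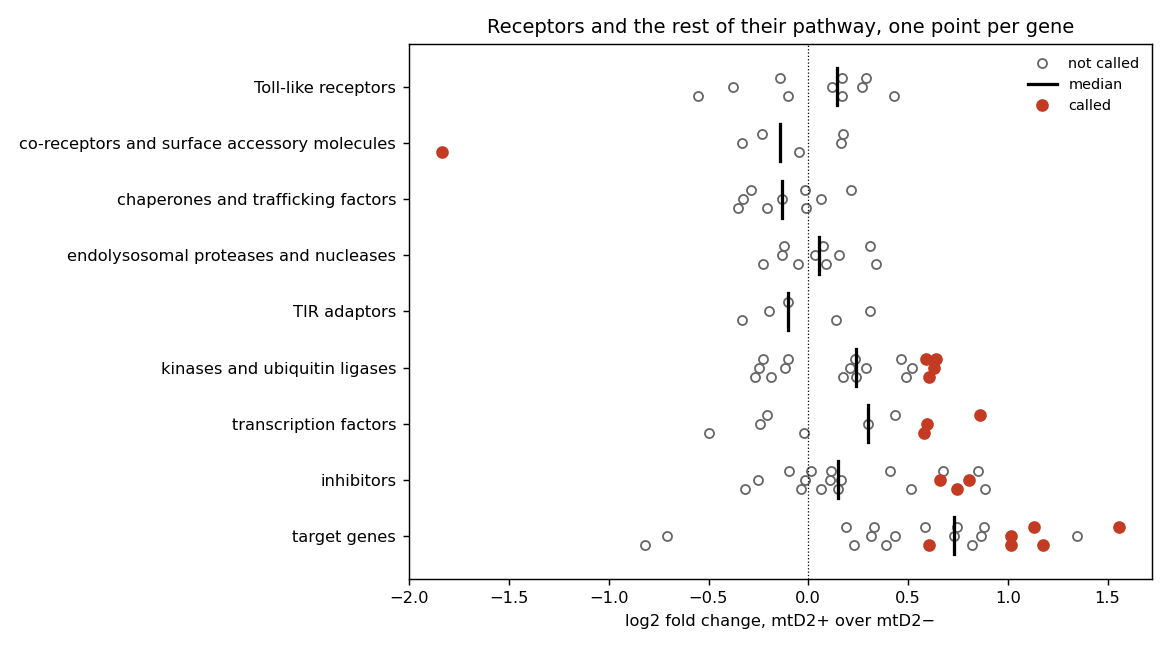
Log2 fold change, mtD2+ over mtD2−, of each tested gene (one point) for the 10 receptors and the 8 pathway lists, with called genes filled in red, uncalled genes open and the median of each list as a black bar. The receptors, chaperones, proteases and adaptors hold no called gene, where 5.50% of all tested genes were called. The 16 genes called higher lie in the kinase, transcription factor, inhibitor and target lists.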

How the data were processed

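RNA of 8 sorted macrophage libraries was amplified with a SMARTer ultra-low input kit, per the labels' protocols. Per the submitters' processing notes, processing named GRCm38, featureCounts 1.45 (Subread), STAR 2.0.4b and bcl2fastq, with neither roles nor options. Values in the deposited count column are whole. The authors' CPM divides each count by its library's sum, and the authors' RPKM divides that again by gene length, both checked on every library and not used further. Printed CPM is scaled with TMM factors over the tested genes.

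Counts were tested with the quasi-likelihood F test of edgeR 4.0.16 (R 4.3.3), TMM scaling and a block for mouse, on 13933 genes kept by its expression filter (minimum count 10, minimum total 15). Calls are at a Benjamini-Hochberg adjusted p of 0.05 over all of these. The SE is the fold change over the square root of F, and 95% intervals use the test's degrees of freedom. Pairing rests on the mouse named in each sample's labels, not on the data. Same-mouse deviations correlated at 0.039, 0.07, 0.145 and 0.251 for mice 1 to 4, under the 0.058 of mouse 1 with another mouse and above the highest such value for the rest. The test was tried on simulated counts. Alternatives were DESeq2 1.42.0, limma 3.58.1 voom, 2 scalings, 2 filters, no block, and leaving out each mouse. Members and lists were chosen with earlier results of these data known. The text names the 10 members, Tlr11 and Tlr12, called genes of each pathway list (up to 6 by smallest p), uncalled genes of smallest p to make 2 where fewer than 2 were called, and the 3 genes most correlated with the member of smallest p. Irf3, Irf5, Irf7, Rela, Nfkb2, Relb, Adgre1, Fcgr1 and Ptprc were added after their values were seen and were not checked for outlying libraries. In the tables, 1048 of 41388 genes had no symbol. The RefSeq promoter table gave sequences for 8 members, and GENCODE M21 transcripts those of Tlr1 and Tlr6.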

Additional observations from a re-analysis of the deposited data

Results flagged for a closer look

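In 72 groups of 4 libraries (36 named genes in each population), 2 had a library far from the other 3 by Dixon's criterion, where chance alone gives about 1 in 20. Tlr3 stood at 4.057 CPM in the mtD2+ library of mouse 1, against 7.264 to 7.695 CPM in the other 3. Without mouse 1 the log2 fold change of Tlr3 was −0.43, in place of −0.55. Cnpy4 stood at 51.54 CPM in the mtD2+ library of mouse 4, against 36.1 to 37.65 CPM in the others.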

How the results depend on the processing

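Of 110 alternative values for the 10 receptors, 106 kept their direction and their side of the threshold. The sign turned for Tlr4 without mouse 2 (−0.017, range without a mouse −0.017 to 0.258) and for Tlr8 without mouse 3 (0.093, range −0.237 to 0.093). It also turned for Tlr11 without the replicate block (−0.005) and without a mouse (−0.256 to 0.532), and for Tlr12 without a mouse (−1.722 to 0.017). The cause was not tested. Without the replicate block by mouse, 147 genes were called higher and 71 lower, with 2 and 0 in the pathway lists and 0 of the 10 receptors. DESeq2 called 1130 higher and 669 lower, with 25 and 3 in the pathway lists and 1 receptor, Tlr2. In the pathway lists, 2 genes were called lower without the filter and 2 with limma voom. Leaving out each mouse gave 120 to 432 genes higher and 46 to 123 lower, 3 to 20 and 0 to 2 in the pathway lists, and 0 to 1 receptors called higher. The endosomal median ran from −0.16 to 0.093 without a mouse, the latter without mouse 3. With 4 mice, SEs of 0.10 to 0.26 on the log2 scale limit which differences in the receptors can be called.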
